A study of Mus musculus with 6 samples.

Results

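The 42 genes described here supply amino acids to a plasma cell and load them onto transfer RNA. They were chosen by symbol from the table of gene FPKM values (fragments per kilobase of gene, scaled to the mapped fragments of the library), and all 42 were found among its 13642 genes. There were 11 carriers of amino acids, 9 enzymes of serine, one-carbon, asparagine and proline synthesis, 20 cytosolic aminoacyl-tRNA synthetase genes, and Chac1 and Sesn2, a pair of genes that respond to amino acid shortage. Bone marrow long-lived plasma cells were sorted from C57BL/6J mice as high for CD138 and negative for Gr-1, CD11b, TCRgd, TCRb, IgD and CD45R(B220). The 3 young samples were female, 2 to 3 months old, bred at the Jackson Laboratory or at UCLA's animal facility. The 3 old samples were male, 17 to 19 months old, from the National Institute on Aging colony. Age, sex and supplier changed together and cannot be told apart. The labels do not say whether a sample was a single animal or a pool, so each p-value measures only how far these samples spread, and that spread can be technical. In bulk RNA of this kind, fewer cells of a type and less RNA per cell cannot be told apart either.

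A plasma cell secretes antibody continuously and so draws on amino acids more heavily than most cells of its size. Carriers in the plasma membrane import them, a few enzymes make serine, glycine, asparagine and proline inside the cell, and each aminoacyl-tRNA synthetase joins an amino acid to its transfer RNA for the ribosome. Uncharged transfer RNA activates the kinase GCN2, which phosphorylates the initiation factor eIF2 and so favours translation of the transcription factor ATF4. ATF4 in turn raises transcription of many carriers, synthesis enzymes and synthetases, Asns and Chac1 being textbook targets.

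All 12 plasma cell marker genes examined were above 0 in every library. Their summed level was 21340 to 24540 FPKM in 5 libraries and 9698 in old replicate 3. In that library the summed neutrophil markers were 945.9 FPKM, against 439.9 to 570.0 in the young libraries, 269.3 in old replicate 1 and 1348 in old replicate 2. Its monocyte and macrophage markers summed to 848.8 FPKM, against 93.85 to 302.0 elsewhere. Its erythroid markers summed to 892.8 against 29.89 to 310.0, and its dividing-cell markers to 859.6 against 239.9 to 483.6. Neutrophil markers did not move together in old replicate 3. Elane, Mpo, Prtn3 and Ctsg, at 220, 264, 86.2 and 282 FPKM, were each highest there. S100a9, Ngp and Lcn2, at 40.2, 38.4 and 3.05 FPKM, were each lowest there. S100a8, Ltf, Camp, Mmp8 and Retnlg lay within the range of the other libraries. B cell markers summed to 147.3 FPKM there, against 600.5 and 379.7 in old replicates 1 and 2 and 192.5 to 309.7 in young libraries. Mki67, a marker of dividing cells, was at 90.5 to 280 FPKM and thus detected in all 6 libraries. Not all 18 dividing-cell markers were. Of them, 4 were listed at 0 in young replicate 2, 2 in young replicate 3 and 1 in old replicate 1. Between 8934 and 10664 genes were above 0 in young libraries, fewest in young replicate 3, against 11310 to 12049 in the old group. From the steps of the lowest values, the depth was about 22.4 to 25.4 M fragments for young libraries and 27.0 to 28.1 M for old ones.

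ATF4 binds, with a partner of the C/EBP family, a word known as the C/EBP-ATF response element. The word TGATGNAA was searched on both strands of the RefSeq promoters of GRCm38.p6, which run from 250 bases before to 50 bases after each start. Of the 42 genes, 32 had a promoter entry, and 11 of these, or 34.4%, held the word, against 4.51% of 27025 genes in that table. The narrower form TGATGCAA, which is contained in the first, was present in 9 of the 32, or 28.1%, against 1.03% of all genes. The 11 were the carriers Slc7a7, Slc7a11 and Slc1a4, the enzymes Asns and Pycr1, Chac1, and the synthetase genes Aars, Gars, Iars, Tars and Yars. Many of these genes are known for their ATF4 response, so the share is not independent of the way such genes came to be grouped. A match is a run of letters and not a measured site. The 10 members with no entry were Slc7a5, Slc1a5, Slc38a1, Cars, Hars, Lars, Nars, Rars, Vars and Wars. Of the 11, 6 are shown with the word in capitals, to let the position and surroundings of the element be compared. Pycr1, Slc7a7, Tars and Yars are among the highest members of their role, those of smallest p or those without overlap. Asns and Chac1 were added as the textbook targets.
Asns, chr6:7693160-7693459, minus strand: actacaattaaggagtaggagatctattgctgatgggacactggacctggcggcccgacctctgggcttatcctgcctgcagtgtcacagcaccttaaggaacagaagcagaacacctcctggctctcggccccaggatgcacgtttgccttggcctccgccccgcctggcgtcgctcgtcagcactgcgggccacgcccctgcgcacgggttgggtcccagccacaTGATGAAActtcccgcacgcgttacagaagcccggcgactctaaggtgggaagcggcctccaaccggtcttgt
Chac1, chr2:119350992-119351291, plus strand: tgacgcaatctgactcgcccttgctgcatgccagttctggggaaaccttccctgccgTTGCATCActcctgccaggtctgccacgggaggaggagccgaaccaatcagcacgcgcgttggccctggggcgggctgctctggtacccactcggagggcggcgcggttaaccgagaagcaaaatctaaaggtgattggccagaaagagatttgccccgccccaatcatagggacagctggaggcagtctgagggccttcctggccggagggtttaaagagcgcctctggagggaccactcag
Pycr1, chr11:120643699-120643998, minus strand: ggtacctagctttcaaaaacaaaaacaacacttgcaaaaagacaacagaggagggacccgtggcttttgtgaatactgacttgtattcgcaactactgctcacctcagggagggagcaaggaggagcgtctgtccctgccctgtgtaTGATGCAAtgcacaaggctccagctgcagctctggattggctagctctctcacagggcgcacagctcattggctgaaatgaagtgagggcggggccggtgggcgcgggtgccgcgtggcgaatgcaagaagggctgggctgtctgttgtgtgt
Slc7a7, chr14:54417895-54418194, minus strand: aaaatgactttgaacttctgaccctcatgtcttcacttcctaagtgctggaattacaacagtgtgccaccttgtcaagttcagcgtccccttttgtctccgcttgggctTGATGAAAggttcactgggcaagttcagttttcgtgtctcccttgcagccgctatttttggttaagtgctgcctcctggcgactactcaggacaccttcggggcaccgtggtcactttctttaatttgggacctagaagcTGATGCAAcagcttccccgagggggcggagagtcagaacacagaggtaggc
Tars, chr15:11399609-11399908, minus strand: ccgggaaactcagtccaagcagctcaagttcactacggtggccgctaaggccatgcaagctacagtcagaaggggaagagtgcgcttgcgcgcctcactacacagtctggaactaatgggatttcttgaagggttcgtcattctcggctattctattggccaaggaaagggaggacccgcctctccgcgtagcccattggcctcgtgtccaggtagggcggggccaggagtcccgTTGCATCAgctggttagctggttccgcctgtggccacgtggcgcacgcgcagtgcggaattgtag
Yars, chr4:129189653-129189952, plus strand: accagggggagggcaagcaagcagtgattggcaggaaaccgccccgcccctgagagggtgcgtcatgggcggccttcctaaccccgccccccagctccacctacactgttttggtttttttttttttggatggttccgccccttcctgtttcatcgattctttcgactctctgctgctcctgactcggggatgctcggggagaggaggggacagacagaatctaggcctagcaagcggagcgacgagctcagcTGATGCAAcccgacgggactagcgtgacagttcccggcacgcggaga
Each of these promoters reads 5′ to 3′ along its gene. The word began 23 bases before the start in Asns and 193 before it in Chac1. It began 103 before the start in Pycr1 and 15 before it in Tars. In Yars it began 3 bases past the start. Slc7a7 had 5 promoter entries, and the one shown, with the most matches, held the word at 141 bases and again at 1 base before the start. Another Slc7a7 entry, with a start further along the gene, held the second of these same matches at 243 bases before its start. The other 3 did not hold the word. In Chac1 and Tars it lay on the opposite strand, as TTGCATCA. Asns held TGATGAAA, the form with A in the free position.

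Most of these genes were well expressed in both groups. Averaged over all libraries, 29 of the 42 reached 20 FPKM or more, 16 of them synthetase genes. Of the 42, 34 were above 1 FPKM in every library. The 8 others were each under 1 FPKM in young replicate 3, and 5 of them in another library too. As a share of summed FPKM the 42 genes came to 0.574% ± 0.0691 in the young group and 0.559% ± 0.0768 in the old (SD, n = 3 each). The lowest share was 0.470% in old replicate 3 and the highest 0.641% in young replicate 3, so the groups overlapped.

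The comparison of old with young cells asked which transcripts of amino acid supply differ between the groups, in which age, sex and supplier changed together. Differences were tested with limma on log2(FPKM + 1), old minus young, over the 10687 genes with a mean of at least 1 FPKM. The filter passed 41 of the 42 genes and left out Slc7a11. Limma called 0 of the 41 at an adjusted p under 0.05, where 0% of all tested genes were called. None of the 41 had an unadjusted limma p under 0.05, against 5.91% of all tested genes, and their adjusted p lay between 0.839 and 0.999. By sign, 20 had higher and 21 lower old values, with a median log2 change of -0.01. Over all tested genes 61.3% were higher, with a median of 0.23. Among genes of at least 20 FPKM, the level of most members, 51.4% were higher, with a median of 0.02.

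Values of old and young libraries did not overlap for 5 of the 41, or 3 with old higher and 2 with old lower. Over all tested genes the share without overlap was 12.2%, made up of 8.78% with old higher and 3.42% with old lower, and among genes of at least 20 FPKM it was 10.1%. The share among the members was thus close to the background. The 5 were Shmt2, Sesn2, Kars, Dars and Yars, and each is described with its role. With any single library left out, the count rose to between 6 and 13, as fewer samples separate more easily. After median-ratio scaling it fell to 3.

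**Figure D1:**
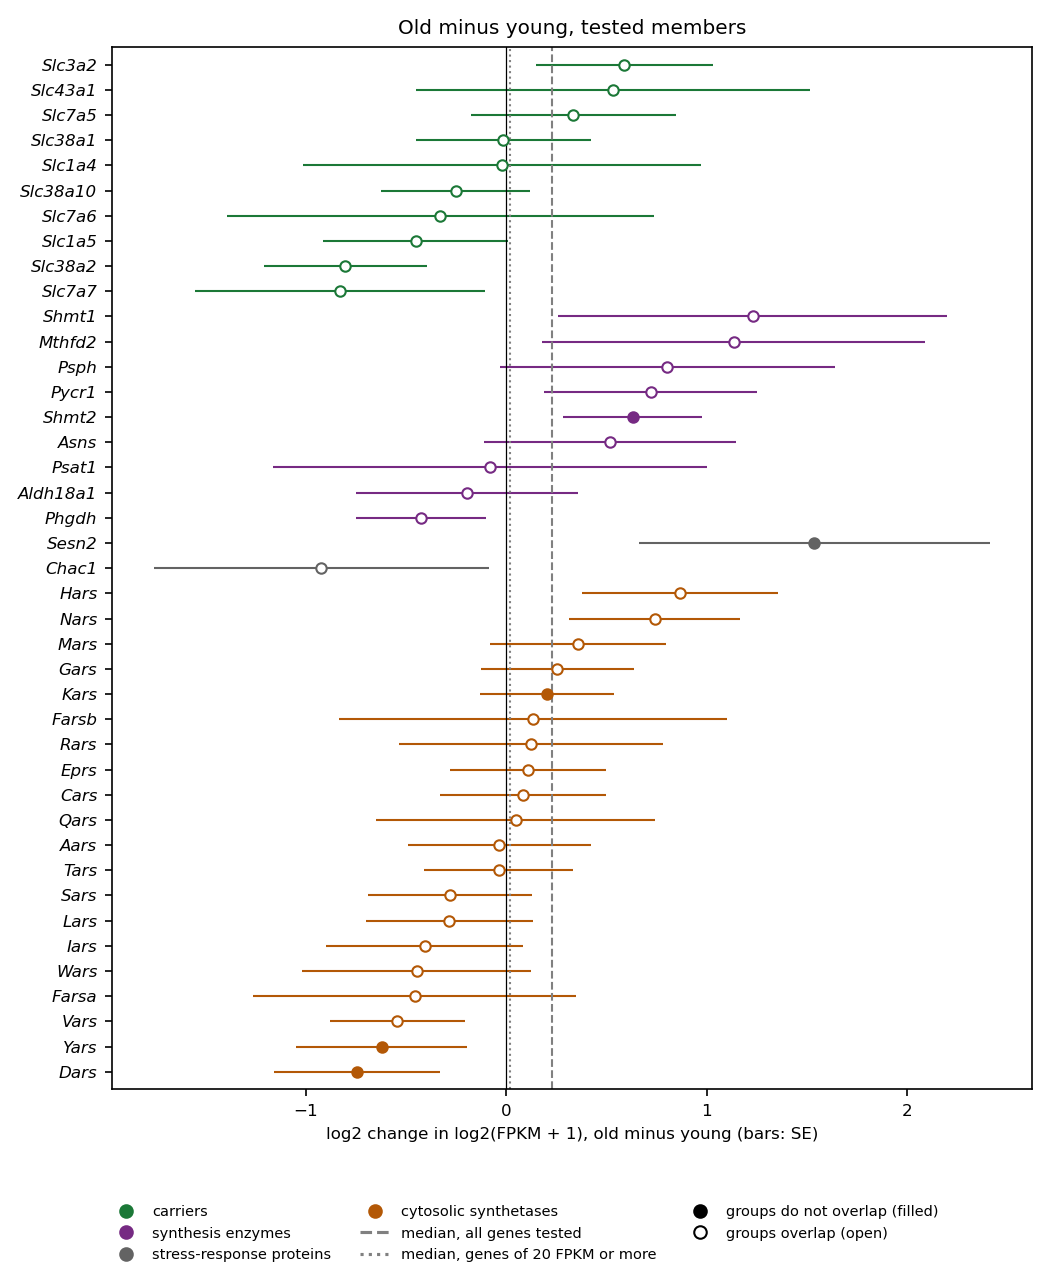
Log2 change of the 41 tested genes, old minus young on the log2(FPKM + 1) scale, with the SE as a bar and colour by role. Filled points mark the 5 genes whose groups do not overlap, and vertical lines mark 0, the median of all tested genes (0.23, dashed) and that of genes of at least 20 FPKM (0.02, dotted). The 9 synthesis enzymes have the highest role median, 0.63, and limma called 0 genes.

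Carriers were led by Slc3a2, which encodes the CD98 heavy chain that brings several carrier light chains to the cell surface. It lies on chromosome 19 (8706882 to 8723369, minus strand, GRCm38). Young libraries held 91.9, 222 and 329 FPKM of it and old libraries 268, 363 and 236, a mean above that of 98.9% of tested genes. Young replicate 1 was lowest and old replicate 2 highest, and the other 4 values lay within the span of the young group. The log2 change was 0.59 ± 0.44 (SE) with a limma adjusted p = 0.854. It was 0.07 without young replicate 1 and 0.99 without young replicate 3. The light chain that imports large neutral amino acids, LAT1, is encoded by Slc7a5. It was at 20.7, 20.6 and 68.7 FPKM in young and 40.2, 42.2 and 35.98 in old libraries, highest in young replicate 3. Its 3 old values thus lay inside the young range. The ratio of Slc3a2 to Slc7a5 FPKM was 6.66 ± 3.57 in the young group and 7.29 ± 1.16 in the old (SD, n = 3; two-sided exact permutation p = 0.6, where 3 against 3 allows no less than 0.1).

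The other light chains of CD98 were far lower than Slc3a2. Slc7a7, the y+LAT1 chain that exchanges cationic for neutral amino acids, was at 24.7, 6.70 and 8.03 FPKM in young and 5.05, 4.28 and 9.01 in old libraries. The groups overlapped, and young replicate 1 stood above the rest. Slc7a6, the related y+LAT2 chain, was at 11.8, 4.14 and 0.343 against 3.12, 6.22 and 0.496 FPKM, lowest in replicate 3 of each group. The cystine carrier chain xCT, encoded by Slc7a11, was listed at 0 in 5 libraries and at 0.0745 FPKM, about 28 fragments, in old replicate 1. Among the 11 carriers of this set, Slc7a11 was thus the one with next to no transcript in these cells. Its promoter held the searched word at 66 bases before the start and again on the opposite strand.

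Carriers of small neutral amino acids and glutamine were of intermediate level. Slc38a2 encodes SNAT2, a sodium-coupled importer known to be induced by amino acid shortage. It was at 44.5, 60.5 and 89.7 FPKM in young and 31.2, 47.9 and 29.5 in old libraries, with old replicate 2 above young replicate 1 and no other overlap. The log2 change of -0.80 ± 0.41 (SE) had the smallest p of the carriers (limma adjusted p = 0.839). Its relative Slc38a1, or SNAT1, was nearly level in young libraries at 22.1 ± 1.08 FPKM and at 22.2 ± 4.77 in old ones (SD, n = 3). Slc38a10, a less studied member of the family, was at 44.4, 40.2 and 56.8 FPKM in young and 33.9, 49.1 and 35.5 in old libraries, with overlap. The glutamine carrier ASCT2, encoded by Slc1a5, was at 57.6, 55.2 and 29.5 against 20.3, 36.2 and 48.6 FPKM. Young replicate 3 was the low one of its group and old replicate 3 the high one of its own.

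Of the lowest carriers, 2 others had a library far under the rest of their group. Slc1a4, which encodes the serine and alanine carrier ASCT1, was at 2.40, 4.54 and 0.288 FPKM in young and 2.85, 4.87 and 0.0283 in old libraries. Like Slc7a6 it was lowest in replicate 3 of each group, the last value being about 3 fragments. Slc43a1, the LAT3 carrier of branched-chain amino acids, was at 8.30, 7.18 and 0.0912 FPKM in young and 5.92, 3.72 and 6.68 in old libraries. Its low value in young replicate 3 was about 12 fragments. For the 10 tested carriers the median log2 change was -0.14, 3 higher and 7 lower. That median was 0.04 without young replicate 1 and 0.08 without old replicate 3. It was -0.51 without young replicate 3, -0.47 without old replicate 2 and -0.35 after quantile normalization, so its size rested on single libraries.

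**Figure D2:**
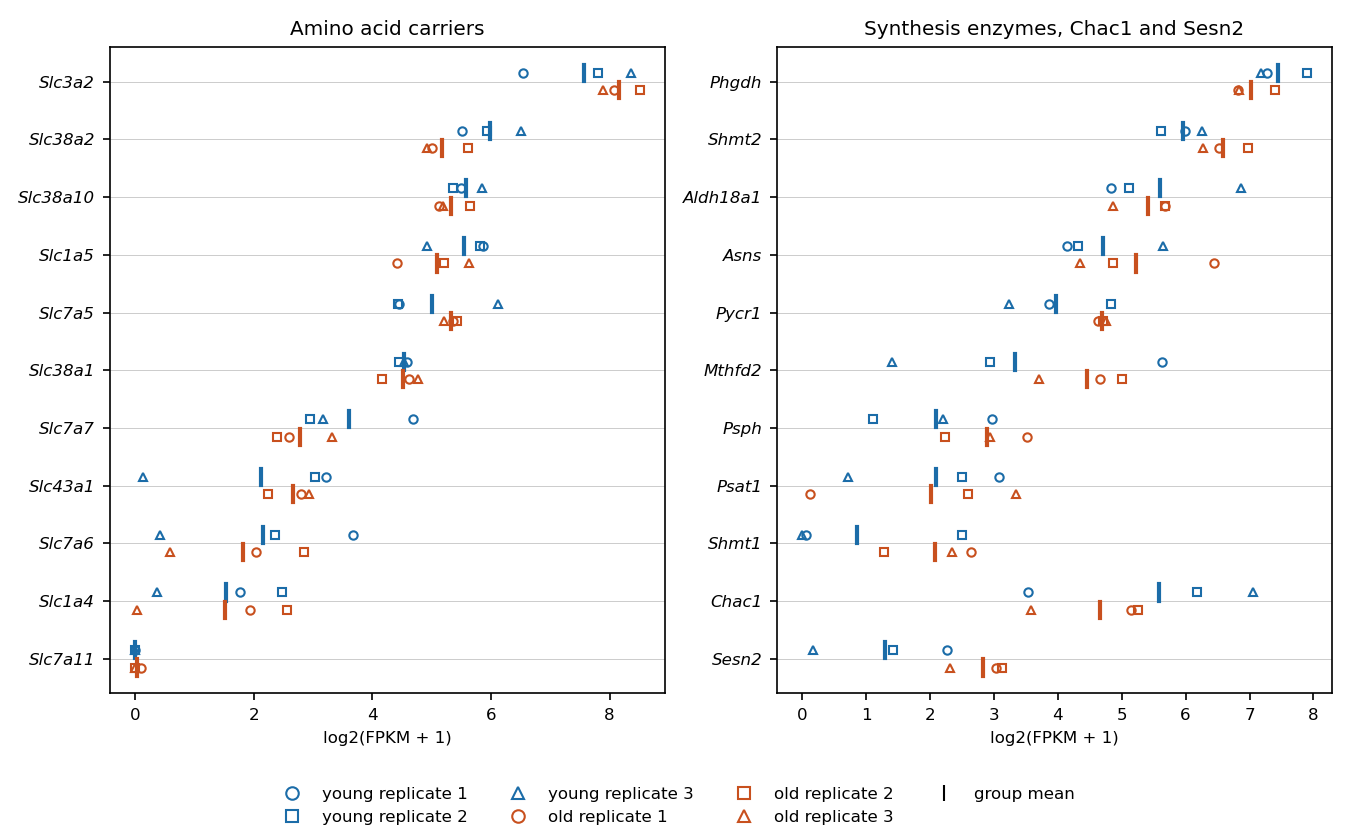
Levels of the 11 carriers (left) and of the 9 synthesis enzymes with Chac1 and Sesn2 (right) as log2(FPKM + 1), with 1 point per library, marker shape giving the replicate, and a bar at each group mean. Slc3a2 and Phgdh stand at the top, Slc7a11 lies at or near 0 in all 6 libraries, and the groups do not overlap for Shmt2 and Sesn2.

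Serine is made from a glycolytic intermediate in 3 steps, catalysed by the products of Phgdh, Psat1 and Psph. Phgdh, the committing step, was at 153, 237 and 144 FPKM in young and 112, 168 and 114 in old libraries. It exceeded every other synthesis enzyme gene in all 6. Old replicate 2 lay above young replicates 1 and 3, and the other 2 old values lay below all young ones (log2 change -0.43 ± 0.32 SE, limma adjusted p = 0.854, and -0.20 without young replicate 2). The aminotransferase gene Psat1 was at 7.46, 4.67 and 0.650 FPKM in young and 0.0890, 5.02 and 9.18 in old libraries. Old replicate 1 was the lowest, at about 10 fragments. For the phosphatase gene Psph the young mean was 3.88 ± 2.86 FPKM and the old mean 6.96 ± 3.41 (SD, n = 3). Phgdh was thus more than 10-fold above the genes of the later steps in every library, and the libraries that were high or low differed between the 3 genes.

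Serine is split to glycine by serine hydroxymethyltransferases, which pass its carbon to folate. Shmt2 encodes the mitochondrial enzyme and lies on chromosome 10 (127517123 to 127522444, minus strand). It was at 62.5, 48.3 and 75.7 FPKM in young and 90.5, 125 and 76.5 in old libraries. The groups did not overlap, although old replicate 3 exceeded young replicate 3 by less than 1 FPKM. The log2 change was 0.63 ± 0.35 (SE), with a limma adjusted p = 0.841. Shmt1, the cytosolic counterpart, was at 0.0415, 4.68 and 0 FPKM in young and 5.22, 1.42 and 4.05 in old libraries. The value in young replicate 1 was about 4 fragments, so this gene was near its detection limit in 2 young libraries. Mthfd2, the mitochondrial folate enzyme that acts after Shmt2, was at 48.4, 6.67 and 1.66 against 24.3, 31.2 and 12.1 FPKM. The young libraries enclosed the old ones, with young replicate 1 highest and young replicate 3 lowest of all 6.

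Asparagine and proline synthesis genes showed a similar lack of separation. Asns, which makes asparagine from aspartate and glutamine, was at 16.6, 19.0 and 49.4 FPKM in young and 86.2, 28.2 and 19.4 in old libraries. Young replicate 3 and old replicate 1 were high. Its log2 change was 0.52 ± 0.63 (SE), and -0.10 without old replicate 1. Aldh18a1, which starts proline synthesis from glutamate, was at 27.4, 33.7 and 115.7 FPKM in young and 50.3, 50.4 and 28.0 in old libraries, and young replicate 3 stood above all others. Pycr1, which completes proline in mitochondria, was at 13.6, 27.5 and 8.44 against 23.8, 25.0 and 26.1 FPKM. The 3 old values of Pycr1 lay close together and below young replicate 2 (log2 change 0.72 ± 0.53 SE, limma adjusted p = 0.854). The log2 change was 0.35 without young replicate 3 and 1.15 without young replicate 2. For the 9 synthesis enzymes the median log2 change was 0.63, with 6 higher and 3 lower in old libraries and 0 called. It ranged from 0.33 to 0.78 with single libraries left out, and was 0.44 after quantile normalization.

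Chac1 and Sesn2, which both respond to ATF4, differed in sign. Chac1 degrades glutathione and was at 10.5, 71.2 and 131.7 FPKM in young and 34.5, 37.3 and 10.95 in old libraries. Young replicate 3 was highest and young replicate 1 lowest, so the young range held every old value (log2 change -0.92 ± 0.84 SE, limma adjusted p = 0.854). That log2 change lay between -1.95 and -0.19 over all alternatives. Sesn2 encodes a leucine-binding inhibitor of the growth kinase complex mTORC1 (chromosome 4, 132492032 to 132510501, minus strand). Its level was 3.81, 1.69 and 0.131 FPKM in young and 7.19, 7.77 and 3.97 in old libraries. The groups did not overlap, by a margin of less than 1 FPKM between young replicate 1 and old replicate 3. The log2 change was 1.54 ± 0.88 (SE) with a limma adjusted p = 0.844. It was 0.98 without young replicate 3, 0.67 after quantile normalization and 2.39 with a pseudocount of 0.1. Among the 3287 tested genes of 1 to 5 FPKM, the level of Sesn2, 13.6% had all old values above all young ones, and the median log2 change was 0.57.

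Upstream of these genes, the integrated stress response list held 17 tested genes, 14 of them higher in old libraries and 3 lower. Their median was 0.20, and 0 were without overlap. Over all tested genes 61.3% were higher, the median was 0.23 and 12.2% were without overlap. Atf4 itself was abundant, at 269, 361 and 402 FPKM in young and 470, 352 and 355 in old libraries. Its groups overlapped, with young replicate 1 lowest and old replicate 1 highest (log2 change 0.20 ± 0.28 SE, limma adjusted p = 0.913). Ddit3, which encodes the stress factor CHOP, was at 38.6, 25.5 and 97.5 FPKM in young and 61.9, 59.2 and 41.1 in old libraries. As for Chac1, Slc7a5 and Aldh18a1, young replicate 3 was the highest, but it was the lowest for Atf5, Mthfd2, Pycr1 and Sesn2. Of all tested genes of at least 20 FPKM, 26.4% were highest and 26.1% lowest in that library. Eif2ak4, which encodes GCN2, was at 9.85 ± 7.07 and 8.79 ± 4.77 FPKM (SD, n = 3). Trib3, an ATF4 target that restrains the response, was listed at 0 in young replicates 2 and 3 and old replicate 3, and was at 0.402, 20.1 and 2.81 FPKM in young replicate 1 and old replicates 1 and 2. Old replicate 1 was thus the high library for Trib3, as for Asns. Atf5 was 24.1 ± 16.5 against 41.2 ± 23.7 FPKM, and Eif2ak2, the double-stranded RNA kinase that shares the eIF2 target, was 20.6 ± 7.48 against 27.8 ± 4.24 (SD, n = 3).

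Each of the 20 cytosolic synthetase genes was detected in every library, and 19 were above 1 FPKM throughout. Their summed share of FPKM was 0.276%, 0.287% and 0.276% in young libraries. In the old libraries it was 0.304%, 0.280% and 0.228%. Old replicate 3 was the low one, the library in which the summed plasma cell markers were also lowest and several marker lists of other cells highest; the part of those markers in this share was not tested. In old replicates 1 and 2 the share lay within or above the young range.

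The order of synthetase levels was broad, with no gap between neighbours. In no pair of adjacent genes did all 6 values of one exceed all 6 of the next. Nars, for asparagine, had the highest mean, at 90.04, 133 and 42.4 FPKM in young and 154.6, 149 and 104.6 in old libraries. It ranked first of the 20 in young replicate 2 and in all old libraries but ninth in young replicate 3. Vars, for valine, was at 109.7, 84.2 and 150.5 against 84.4, 82.4 and 63.7 FPKM. Tars, for threonine, was at 71.0, 86.7 and 63.1 against 97.3, 79.6 and 46.2. Vars and Tars were the 2 genes among the 5 highest synthetases in all 6 libraries. At the low end, Farsa and Qars were among the 5 lowest in all 6 libraries, and Farsb and Rars in 5. Farsa and Farsb encode the 2 subunits of the phenylalanine enzyme. Their means were close, at 11.2 and 10.1 FPKM, but Farsb was at 13.9, 21.8 and 0.666 in young and 7.41, 8.65 and 8.21 in old libraries. The 0.666 of young replicate 3 was about 39 fragments, in a library where Farsa was at 19.6 FPKM, its highest.

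**Figure D3:**
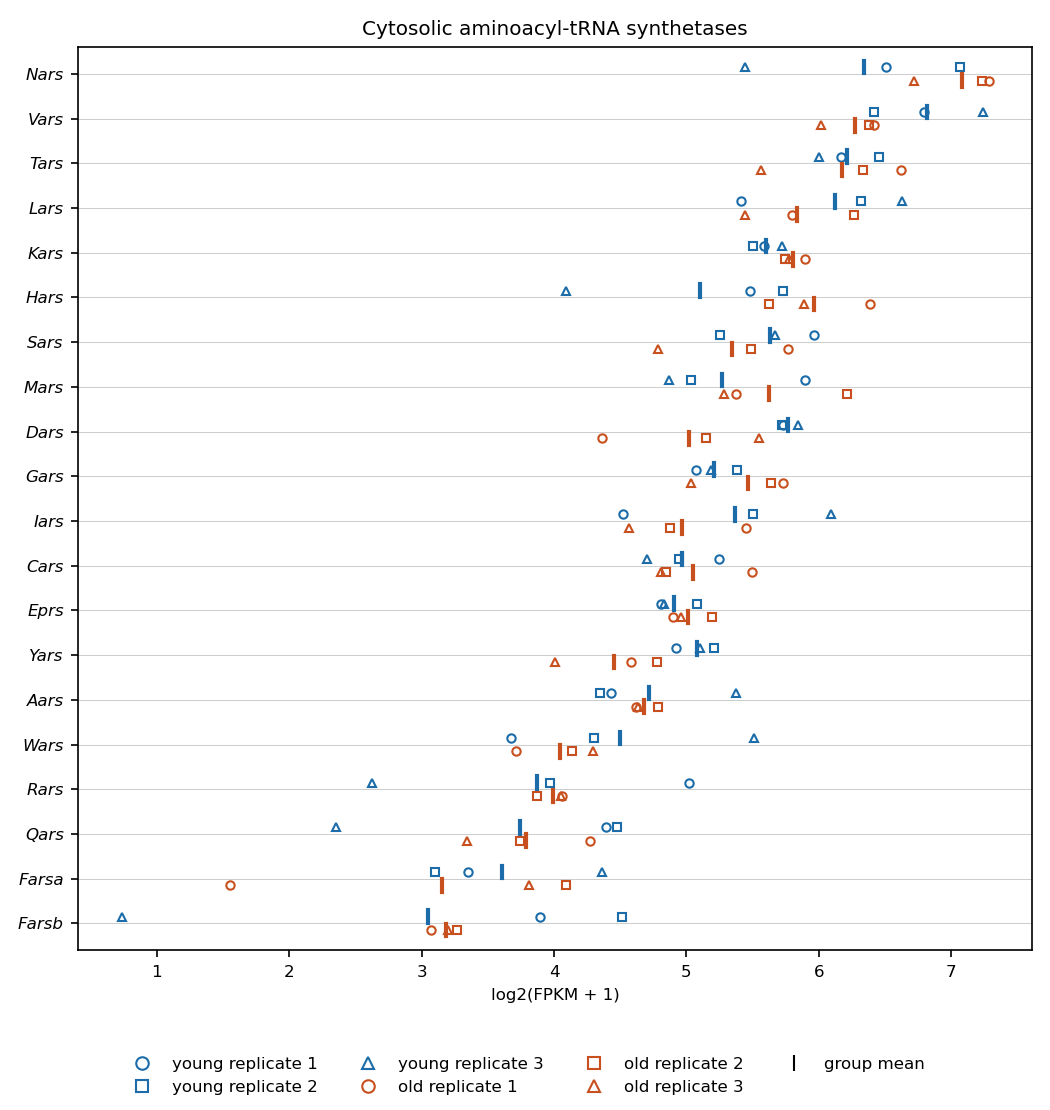
Levels of the 20 cytosolic synthetase genes as log2(FPKM + 1), ordered by their mean over the 6 libraries, with 1 point per library, marker shape giving the replicate, and a bar at each group mean. Dars and Yars have all old points below the young ones and Kars all above, while young replicate 3 lies far below the rest for Farsb, Qars, Rars and Hars.

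Synthetase genes split evenly between old and young libraries. Of the 20, 10 were higher and 10 lower in old libraries, with a median log2 change of 0.01 and 0 called. Median-ratio scaling and quantile normalization gave medians of -0.09 and -0.11, and moved the median of all tested genes from 0.23 to 0.14 and -0.01. Dars, for aspartate (chromosome 1, 128363707 to 128417368, minus strand), had the smallest p of the group. It was at 51.98, 51.8 and 56.5 FPKM in young and 19.6, 34.5 and 45.7 in old libraries. The young values lay close together and above each old value, which spread widely (log2 change -0.74 ± 0.41 SE, limma adjusted p = 0.841). Without old replicate 1 the log2 change was -0.42. Yars, for tyrosine (chromosome 4, 129189760 to 129219607, plus strand), was at 29.3, 36.0 and 33.4 FPKM in young and 22.9, 26.5 and 15.05 in old libraries. Again no old value reached the young range, and the log2 change was -0.62 ± 0.43 (SE), with a limma adjusted p = 0.854. Without old replicate 3 it was -0.40.

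Kars was higher in old libraries by a small amount. This gene encodes the lysine enzymes of both cytosol and mitochondria (chromosome 8, 111993443 to 112011323, minus strand). It was at 47.0, 44.2 and 51.9 FPKM in young and 58.6, 52.7 and 53.7 in old libraries, with no overlap and a gap of less than 1 FPKM. The log2 change was 0.20 ± 0.33 (SE), with a limma adjusted p = 0.922. It lay below the median of all tested genes, 0.23, but above that of tested genes of 50 FPKM or more, the level of Kars, which was -0.03. Kars and Eprs, for glutamate and proline, were the steadiest members, their highest library being 1.33 and 1.31 times the lowest. Hars, for histidine, was at 43.7, 52.2 and 16.0 FPKM in young and 82.5, 48.3 and 58.3 in old libraries. Overlap came from young replicate 2 against old replicate 2 (log2 change 0.87 ± 0.49 SE, limma adjusted p = 0.844). For Nars and Vars, with values given above, the log2 changes were 0.74 ± 0.43 and -0.54 ± 0.34 (SE), and the groups overlapped for both. Without young replicate 3 the log2 change was 0.36 for Hars, 0.29 for Nars and -0.33 for Vars. Lars, Iars and Wars, for leucine, isoleucine and tryptophan, were highest in young replicate 3, at 97.9, 67.2 and 44.6 FPKM. They were lowest in young replicate 1, at 41.5, 21.9 and 11.8. The young means of these 3 genes were 72.8 ± 28.7, 44.5 ± 22.6 and 25.0 ± 17.3 and the old means 57.6 ± 16.8, 31.2 ± 10.3 and 15.8 ± 3.32 (SD, n = 3). Without young replicate 3 their log2 changes were -0.03, -0.05 and 0.06. By structural class, the 10 class I enzymes had a median log2 change of -0.12 and the 10 class II enzymes one of 0.05, each with 5 higher and 5 lower.

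In mammals 8 of these synthetase genes, Dars, Eprs, Iars, Kars, Lars, Mars, Qars and Rars, encode enzymes held together in the multi-synthetase complex. Their median log2 change was 0.08, with 5 higher and 3 lower, and that of the 12 genes outside the complex was -0.04. The complex is built around 3 scaffold proteins without synthetase activity, encoded by Aimp1, Aimp2 and Eef1e1, and for each of these every old value lay above every young one. Eef1e1 was at 6.27 FPKM in young replicate 1, was listed at 0 in young replicates 2 and 3, and was at 16.8, 11.9 and 18.7 in old libraries. Aimp2 was at 1.47 and listed at 0 in the same libraries, against 5.28, 5.27 and 18.1. Both genes were thus missing from the same young libraries and present in each old one. Aimp1 was at 8.60, 10.4 and 4.19 FPKM in young and 13.7, 11.1 and 15.9 in old libraries, again without overlap. Limma adjusted p was 0.736 for Eef1e1, 0.736 for Aimp2 and 0.854 for Aimp1, so 0 of the 3 was called, while 2 had an unadjusted p under 0.05. The log2 changes were 3.09 ± 0.95, 2.75 ± 0.89 and 0.80 ± 0.61 (SE). Among tested genes of 5 to 20 FPKM, 7.86% had all old values above all young ones, and among those of 1 to 5 FPKM 13.6%. Aimp2 averaged 0.491 FPKM in young and 9.54 in old libraries, so it passed the filter and reached the higher level only through its old values. Young replicates 2 and 3 were also the libraries with the fewest genes above 0, and the part of that in the zeros was not tested.

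**Figure D4:**
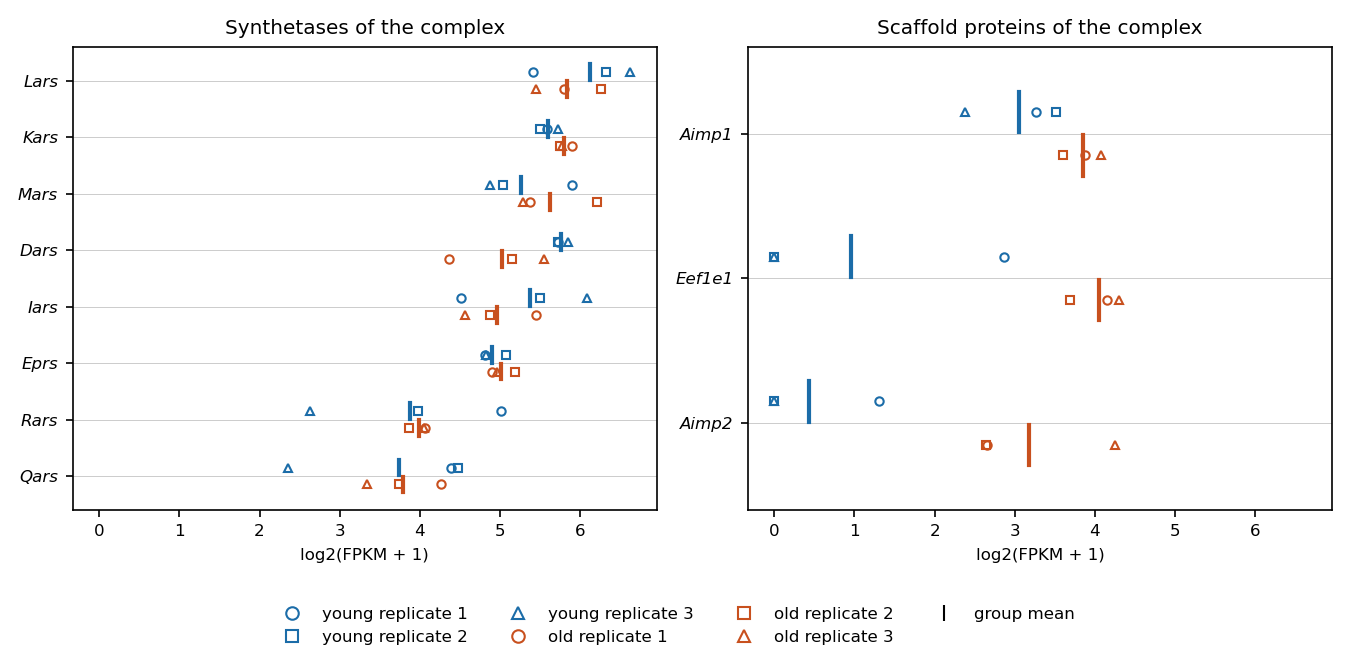
Levels of the 8 synthetase genes of the multi-synthetase complex (left) and of its 3 scaffold genes (right) as log2(FPKM + 1), with 1 point per library, marker shape giving the replicate, and a bar at each group mean. Scaffold genes show all old points above the young ones, with Eef1e1 and Aimp2 at 0 in young replicates 2 and 3, while among the enzyme genes only Dars and Kars have groups that do not overlap.

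Most synthetases of mitochondria are encoded by separate nuclear genes. The list of 20 also held Gatb, Gatc and Qrsl1, which encode subunits of an enzyme that is not a synthetase. Of the 20, 19 were tested. Of these, 12 were higher and 7 lower in old libraries, with a median of 0.28, and 1 was without overlap with old higher and 2 with old lower. These counts too lay near the 61.3% higher and 12.2% without overlap over all tested genes. Aars2, for alanine, was at 1.08, 0.373 and 0 FPKM in young and 5.47, 2.75 and 4.19 in old libraries, without overlap (limma adjusted p = 0.839). Its young mean was 0.486 FPKM, so it passed the filter of 1 FPKM only through its old values. Tars2 was 2.173 ± 2.44 against 7.84 ± 3.07 FPKM, and Gatc, a subunit of the enzyme that corrects glutamate on glutamine transfer RNA, was 22.7 ± 19.4 against 55.2 ± 30.2 (SD, n = 3). Both overlapped between groups.

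Of 29 other tested enzymes of amino acid and one-carbon metabolism, 19 had higher and 10 lower old values, with a median of 0.48, and 4 were without overlap. Over all tested genes 61.3% were higher, the median was 0.23 and 12.2% were without overlap, so the counts lay near the background. Pycrl, a further proline-forming reductase gene, was at 0.0324, 0.281 and 1.48 FPKM in young and 11.2, 4.95 and 19.1 in old libraries. Its groups did not overlap, and its p was the lowest of any gene named here (limma adjusted p = 0.729). Its young mean was 0.598 FPKM, so it passed the filter of 1 FPKM only through its old values. Of tested genes at its level, 5 to 20 FPKM, 7.86% had every old value above every young one. Oat, which links ornithine to proline and glutamate, went the other way, at 16.2, 48.6 and 26.6 against 3.46, 12.05 and 14.6 FPKM, also without overlap. Ass1, of arginine synthesis, was at 56.5, 3.38 and 0.0239 against 40.3, 21.1 and 71.7 and overlapped. With Pycr1 and Aldh18a1, the proline genes measured here therefore did not share a direction.

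Among 17 other amino acid carriers tested, 10 were higher and 7 lower in old libraries, with a median of 0.36 and 2 without overlap, both with old higher. The shares over all tested genes were 61.3% higher and 12.2% without overlap. Slc6a9, the glycine carrier GLYT1, was listed at 0 in young replicates 1 and 2, and was at 0.390 FPKM in young replicate 3 and 2.76, 3.98 and 3.08 in old libraries. Slc36a4, a proton-independent carrier of proline and tryptophan, was at 0.220, 0.808 and 0.612 against 5.22, 2.57 and 5.63 FPKM. Slc6a9 and Slc36a4 were under 1 FPKM in every young library, so they passed the filter only through their old values. Of tested genes at their level, 1 to 5 FPKM, 13.6% had every old value above every young one. Slc43a3, listed by its carrier family but known to carry purine nucleobases, averaged 21.3 ± 13.2 FPKM in young libraries against 5.30 ± 5.00 (SD, n = 3), with overlap. Slc7a1, the main importer of arginine and lysine in many cells, was 9.11 ± 1.00 and 13.3 ± 3.10 FPKM (SD, n = 3). Old replicate 3 lay below young replicate 3 for Slc7a1. Limma adjusted p of these 4 genes lay between 0.829 and 0.883.

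The list of amino acid sensing by mTORC1 held 34 tested genes, 21 higher and 13 lower, with a median of 0.26. In it 3 genes were without overlap with old higher and 3 with old lower, where 12.2% of all tested genes were without overlap and 61.3% higher. Sec13, shared by the GATOR2 sensor complex and the COPII coat of secretory vesicles, was at 65.2, 101 and 88.1 FPKM in young and 16.8, 61.3 and 40.0 in old libraries. All old values lay below the young ones (log2 change -1.24 ± 0.48 SE, limma adjusted p = 0.827). Nprl3, a subunit of the GATOR1 complex that restrains mTORC1, was at 0.831, 1.76 and 1.16 against 7.67, 5.28 and 9.65 FPKM, without overlap. Lamtor5, of the lysosomal platform for mTORC1, was at 29.8, 66.8 and 191 against 32.0, 39.5 and 8.36, with overlap. Limma called 0 genes of any of these lists.

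Libraries of the same group differed widely for many members. Over the 41 genes the median coefficient of variation was 51.2% among young and 29.1% among old libraries, against 80.1% and 48.6% over all tested genes. For the 29 members of at least 20 FPKM it was 35.3% and 27.3%, against 40.0% and 30.1% for all genes of that level. Young replicate 3 gave the highest value for 12 of the 41 and the lowest for 13, together 61.0%, against 51.0% of all tested genes. The 12 included Chac1, Slc7a5, Aldh18a1, Slc38a2, Lars, Iars, Vars, Wars and Aars, and the 13 included Nars, Hars, Qars, Rars, Farsb, Pycr1, Mthfd2 and Sesn2. That library thus split the synthetase genes, with 7 of the 20 at their highest and 7 at their lowest. Without young replicate 3 the median over the 20 synthetase genes was -0.05 and limma called 0 of the members.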

How the data were processed

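Libraries were made from 5 ng of total RNA with a stranded template-switching kit that removes ribosomal cDNA, per the labels' protocols. The deposited values are FPKM, computed by the authors, with 1 column per sample. The submitters' processing notes name bcl2fastq 2.17, STAR and DESeq2 and the builds GRCm38 and mm10, without roles. The counter, the annotation and the use of strand are not given in the sources used here. No count model was run on FPKM.

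Low values allowed relative depths to be read. Between young replicate 1 and each other library, 97.9% or more of the ratios of low values were ratios of small whole numbers within 0.1%. Depths in fragments used merged exon lengths of GENCODE M21 (GRCm38), which matched 99.89% of the identifiers without their version and 76.85% with it. With these lengths 14.0% to 18.8% of low values per library came out as whole fragments within 1%, so they may not be the authors' lengths, and fragment numbers are rough. In it, exons of 11 members overlap a gene on the other strand, by 10.4% of exon length for Psph with Cct6a and less for the rest. Aars shares 14.3% with Exosc6 on its own strand. Reads of such neighbours may be mixed. Fragment numbers cover counting error only.

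Log2(FPKM + 1) was tested with limma 3.58.1 (lmFit, eBayes with trend, R 4.3.3), two-sided, over genes with a mean of at least 1 FPKM, with Benjamini-Hochberg adjustment over all 10687 and a call at 0.05. Changes on this scale understate those of low genes. The script was tested on simulated data. Lists are described by counts and medians, with no set test. Python 3.11.15, numpy 2.4.6, pandas 2.3.3 and matplotlib 3.10.9 served for tables and plots. Promoter sequences are from RefSeq on GRCm38.p6.

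Members, lists and tests were chosen with earlier results of these data known. Values per library are given for the 3 highest members and the 4 of smallest p in each role, for members without overlap or under 1 FPKM in some library, and for Chac1 and Sesn2. In each other list the 3 genes of smallest p are given, with Atf4, Ddit3, Trib3, Eif2ak4 and Slc7a1. Per-library values of Slc7a5, Asns and Mthfd2, and the remarks on Lars, Iars, Wars and Farsa, were added after their values were seen. Alternatives were another pseudocount, other filters and scalings, a replicate block, robust moderation, and each library left out.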

Additional observations from a re-analysis of the deposited data

How the results depend on the processing

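No member was called under any of the 13 alternatives, and the number of genes called over the whole table was 0 in the main analysis, 1 after quantile normalization, 1 with robust moderation and 0 to 7 with single libraries left out. With the replicate number as a replicate block, limma called 0 genes and 0 members. Same-numbered samples did not deviate together (correlations of -0.03, 0.02 and -0.004 across genes), so the numbers were not taken as pairs.

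The count of members without overlap was 5, and it fell to 3 after median-ratio scaling. It was 6 to 13 with single libraries left out, which fewer samples favour by construction. The carrier median of -0.14 was -0.35 after quantile normalization and -0.505 to 0.078 with single libraries left out. For all members the median was -0.065 to 0.137 with single libraries left out. 

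Of 41 members, 26 kept their sign under each alternative that gave a value. None of the others was called, and their log2 changes crossed 0 with single libraries left out: -1.19 to 0.43 for Slc7a6, -0.61 to 0.71 for Slc1a4, -0.14 to 0.16 for Slc38a1, -0.77 to 0.86 for Psat1, -0.26 to 0.27 for Tars, -0.47 to 1.08 for Slc43a1, -0.58 to 0.44 for Aldh18a1, -0.22 to 0.29 for Aars; -0.14 to 0.23 for Cars, -1.02 to 0.87 for Farsb, -0.65 to 0.42 for Qars, -0.50 to 0.70 for Rars, -0.86 to 0.06 for Wars, -0.10 to 0.99 for Asns, -0.93 to 0.34 for Farsa. Median-ratio scaling gave -0.012 for Cars and -0.044 for Qars. Quantile normalization gave 0.041 for Slc38a1, -0.32 for Slc43a1, 0.033 for Aars, -0.42 for Farsb, -0.20 for Qars, -0.028 for Rars and 0.023 for Tars. The cause was not tested. With 3 samples a group and a spread of this size, differences of the sizes seen here could not be told from the spread between samples.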

Other observations

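Of the mitochondrial synthetase genes, Lars2, chosen after its values were seen, stood far above the others. It was listed at 333, 239.5 and 250.1 FPKM in young and 339, 284 and 185 in old libraries. The mean of its cytosolic counterpart Lars was 65.2. Libraries were made from total RNA with ribosomal cDNA removed, and the part of leftover ribosomal reads in the Lars2 values was not tested. The comparison with Lars is therefore one of listed values only.

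Several members were even in one group and uneven in the other, again noted after the values were seen. The coefficient of variation was 59.7% among young and 4.71% among old libraries for Pycr1, 75.6% and 7.99% for Slc7a5, 77.7% and 7.75% for Rars, and 44.5% and 6.74% for Aars. The reverse held for Dars, at 4.96% and 39.4%, and for Slc38a1, at 4.89% and 21.4%. A larger spread among young libraries was seen in 63.4% of the 41 members and in 69.5% of all tested genes.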
